A study of Mus musculus with 15 samples.

Results

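The DNA replication machinery was followed through 49 genes, which cover origin licensing, the MCM helicase and its activation, the sliding clamp, the polymerases, Okazaki fragment joining, nucleotide supply and 3 G1/S regulators. The members were taken by symbol from the 57186 genes of the count table, and 49 of 49 were among the 19839 genes that entered the tests. RNA-sequencing had been performed on RAW 264.7 cells, an established mouse macrophage line, in 5 groups of 3 libraries. The treated groups received SNP100 (nonporous silica nanoparticles of 100 nm nominal diameter, 50 µg/mL), SNP50 (nonporous, 50 nm, 25 µg/mL), MSNP (mesoporous, 100 nm, 200 µg/mL) or HMSNP (hollow mesoporous, 100 nm, 200 µg/mL) for 6 h, doses described as the highest that were not toxic, and the Control group was nontreated. MSNP and HMSNP were thus compared at the same dose and nominal diameter, whereas particle type and dose cannot be told apart between the nonporous and the porous groups. The study describes HMSNP as also very low in density and distinct in surface composition. Between MSNP and HMSNP these traits and hollowness cannot be told apart. Each group also carried a sequencing submission number of its own in the labels, so submission and treatment cannot be told apart either. The sources do not say whether the 3 libraries of a group came from separate cultures, and the p-values then measure only the spread between these libraries. RAW 264.7 is a single line, so every library shares its genotype.

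A chromosome is copied in S phase from origins that are prepared in G1. The origin recognition complex (ORC), with Cdc6 and Cdt1, loads the MCM2-7 helicase onto DNA, while geminin (Gmnn) binds Cdt1 and stops reloading. The kinase Cdc7, with its activator Dbf4, and the loading of Cdc45 and the GINS complex then turn the helicase on. The polymerases work with the clamp PCNA. Many of these genes are targets of the E2F transcription factors, which cyclin E and its partner kinase help to release, and transcripts of the set are high in cycling cells. RAW 264.7 cells divide in culture, unlike most tissue macrophages.

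E2F factors bind sequences close to the start of many of these genes, so the stretch before the start is shown for 4 members that differed between groups in the results that follow. These 4 were chosen from members that hold a match before the start. Mcm5 and Mcm7, which also differed, hold such matches too. Others that differed, Cdt1, Lig1, Mcm3, Pold1, Pold3 and Pole2, held a match only across or after the start. Ccne1, Cdc7, Dbf4, Fen1, Mcm2, Mcm10, Rpa1, Rpa2, Rrm2 and Tk1, which differed as well, held none in their windows. RefSeq windows on GRCm38.p6, from 250 bases before to 50 bases after the start, were found for 40 of 49 members. The letters searched on both strands were TTTCGCGC, TTTGGCGC, TTTCCCGC and TTTGCCGC, and matches may overlap each other. The lines give the 250 bases before the start on the gene's own strand, 5′ to 3′, and the capitals mark the matches. Orc1 lies on the plus strand at chr4:108579204-108579453, Mcm6 on the minus strand at chr1:128359706-128359955, Cdc6 on the plus strand at chr11:98907901-98908150 and Gins3 on the plus strand at chr8:95633309-95633558.
Orc1: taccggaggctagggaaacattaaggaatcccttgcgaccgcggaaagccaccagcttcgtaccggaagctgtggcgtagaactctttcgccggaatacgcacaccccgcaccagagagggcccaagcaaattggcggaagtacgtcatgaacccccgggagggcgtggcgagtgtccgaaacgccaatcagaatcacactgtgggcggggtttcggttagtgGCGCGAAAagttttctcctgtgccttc
Mcm6: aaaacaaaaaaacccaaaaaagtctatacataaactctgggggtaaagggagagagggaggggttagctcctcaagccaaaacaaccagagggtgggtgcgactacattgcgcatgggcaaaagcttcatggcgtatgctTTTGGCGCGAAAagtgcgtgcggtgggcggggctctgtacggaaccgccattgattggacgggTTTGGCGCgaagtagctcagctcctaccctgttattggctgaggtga
Cdc6: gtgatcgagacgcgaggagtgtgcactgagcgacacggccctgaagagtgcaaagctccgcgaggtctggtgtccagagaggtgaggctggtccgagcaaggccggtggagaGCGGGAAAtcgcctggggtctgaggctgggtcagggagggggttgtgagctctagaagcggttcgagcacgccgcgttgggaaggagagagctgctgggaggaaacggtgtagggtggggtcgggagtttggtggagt
Gins3: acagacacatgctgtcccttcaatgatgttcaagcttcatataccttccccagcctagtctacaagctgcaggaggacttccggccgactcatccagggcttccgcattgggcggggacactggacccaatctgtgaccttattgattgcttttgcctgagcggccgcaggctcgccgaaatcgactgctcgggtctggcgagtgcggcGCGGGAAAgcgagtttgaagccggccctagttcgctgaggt

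The match in Orc1 ended 19 bases before the start, and Mcm6 held 3 matches, a pair of which overlap. An E2F-like match stood in the window of 15 of the 40 members (37.5%), against 4.67% of the 10149 tested protein-coding genes with a window and 2.6% of all 27025 genes with one. A CCAAT box, searched on both strands in the same windows, stood in 55.0% of the members and in 43.2% of the tested protein-coding genes. A match was present in 4 of the 9 windowed members that were higher in the MSNP group, in 1 of the 4 that were lower and in 10 of the 27 that were not called, so both directions and the uncalled members held it. These letters describe the window and do not locate a bound factor.

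Each library held between 29369934 and 42617812 counts assigned to genes, and a member had between 596 and 28460 counts in a library. Of 12 macrophage markers 11 exceeded 1000 counts in every library, Mrc1 being the exception with as few as 11, and 20 of 21 markers of other cell types stayed at or under 10 counts in every library. Values are given as CPM (assigned counts scaled to a common library size with TMM factors). Per kilobase of transcript, the Control level was highest for the clamp Pcna at 384 ± 90.1 CPM per kb (SD, n = 3), followed by Mcm6 at 110.0 ± 5.05, the thymidine kinase Tk1 at 106 ± 26.8 and Rrm2 at 83.4 ± 6.49. The positions of Mcm6 and Tk1 in that order do not differ beyond their spread. The lowest per-kilobase levels were those of Cdc7 at 3.22 ± 0.558, Orc1 at 5.57 ± 0.0426 and Pole at 7.14 ± 3.07 CPM per kb. In bulk RNA a smaller share of cells in S phase and less RNA per cell cannot be told apart.

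**Figure D1:**
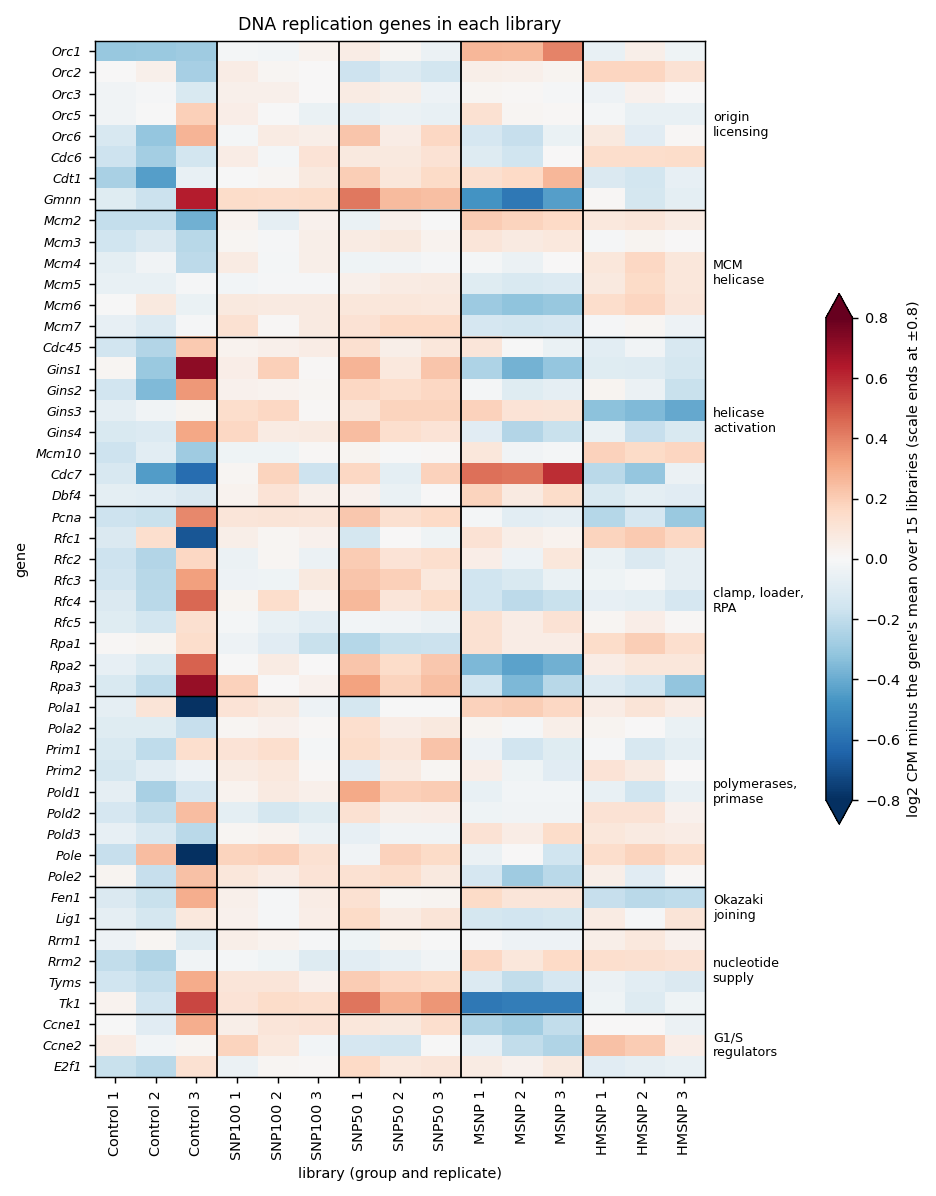
Level of each of the 49 genes (rows, ordered by role) in each of the 15 libraries (columns), as log2 CPM minus the gene's mean over the 15 libraries. The 3 MSNP libraries show red for Orc1 and Cdc7 and blue for Gmnn, Mcm6, Rpa2 and Tk1, and Control replicate 3 differs from the other Control libraries in many rows.

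Control replicate 3 stood apart before any treatment was considered, and in a way that followed transcript length. Each of the 14 members with a canonical transcript under 2000 bases was highest in Control replicate 3 among the Control libraries, with a median log2 difference of 0.536 from the mean of the other two. Among the 13 members of at least 4000 bases it was the lowest Control library for 8 and the highest for 4, with differences from -1.14 to 0.366 and a median of -0.0898. Pole, the catalytic subunit of the leading-strand polymerase and the longest member at 8110 bases, had 60.5, 81.4 and 31.7 CPM in Control replicates 1, 2 and 3. Rpa3, the smallest subunit of the single-strand binding protein and the shortest member at 670 bases, had 24.2, 22.9 and 42.7 CPM. The median within-group SD of the members' log2 CPM was 0.176 in the Control group and between 0.0357 and 0.0438 in the treated groups. The counts of called members are therefore given with and without this library, as are the members whose call in a porous group depended on it.

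**Figure D2:**
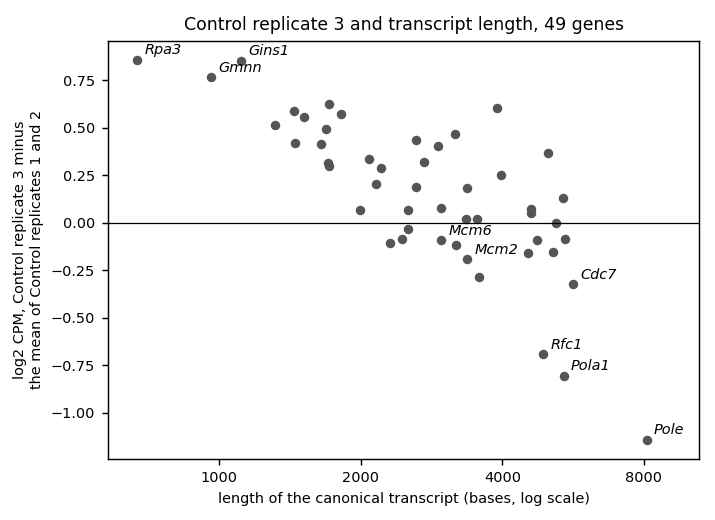
Difference in log2 CPM between Control replicate 3 and the mean of Control replicates 1 and 2 (vertical axis) against transcript length in bases (horizontal log axis), with 1 point for each of the 49 genes. Short members such as Rpa3, Gins1 and Gmnn lie above 0, and the long members Pole, Pola1 and Rfc1 lie lowest.

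The MSNP group addressed how cells saturated with mesoporous particles differed from nontreated cells, and here the replication genes moved in both directions. Of the 49 members 9 were higher and 6 lower than in Control, where 11.8% of all tested genes were higher and 11.0% lower by the same rule (edgeR quasi-likelihood test, Benjamini-Hochberg adjusted p under 0.05 over 19839 genes). In all, 30.6% of the members were called, against 22.8% of all tested genes and 33.3% of those with a mean of at least 10 CPM, a share near the background. The median log2 fold change of the members was 0.06, and that of all genes tested was -0.05. Of the 49 estimates 27 were above 0. Among the members that rose were Cdc7, Orc1, Mcm2, Cdt1 and Rrm2, and among those that fell were Tk1, Gmnn, Rpa2 and Mcm6. The directions went in part with transcript length. Members that rose had 2214 (Cdt1) to 5656 bases (Cdc7). Those that fell were Gmnn (963), Gins1 (1115), Tk1 (1440), Rpa2 (1813), Ccne1 (2078) and Mcm6 (2970). With an offset for transcript length 13 of the 15 calls held, and the part of length in the directions was not tested. No called member reached a 2-fold change in any of the 7 comparisons, and the largest was Cdc7 at 1.82-fold. Without Control replicate 3 the counts became 19 higher and 5 lower (all genes, 16.3% and 13.2%), and without Control replicate 2 there were 10 lower (all genes, 16.8%). Of the 15 calls 14 held without Control replicate 3, and 10 members became calls in the upward direction, each named with its role.

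Among the licensing genes, Orc1, the largest ORC subunit (GRCm39 chr4:108436540-108473245), measured 18.5, 18.6 and 18.8 CPM in Control and 27.5, 27.3 and 30.1 CPM in the MSNP group. The groups did not overlap, and Orc1 rose by 0.60 ± 0.0647 on the log2 scale (SE, n = 3 against 3, adjusted p = 4.93e-06). Cdt1, the MCM loader (chr8:123294703-123300293), measured 134, 118 and 154 CPM in Control and 175, 179 and 193 CPM in the MSNP group, a log2 fold change of 0.43 ± 0.0825 (adjusted p = 0.00122). Its inhibitor Gmnn (chr13:24935812-24946084) went the other way, with 62.7, 59.5 and 104 CPM in Control and 48.3, 45.2 and 49.4 CPM in the MSNP group. Every MSNP library was below every Control library, and the log2 fold change was -0.66 ± 0.155 (adjusted p = 0.00542). Control replicate 3 gave the highest of these Gmnn values, and without it the change was -0.35 (adjusted p = 0.000138) and still called. Cdc6, the other loader, had 48.1, 44.8 and 48.8 CPM in Control and 50.3, 48.4 and 54.2 CPM in the MSNP group, which overlapped. Its log2 difference of 0.11 had an approximate 95% interval from -0.02 to 0.23 (adjusted p = 0.245). The remaining licensing members, Orc2, Orc3, Orc5 and Orc6, were not called.

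Within the MCM2-7 helicase, a complex of 1 copy of each subunit, the transcripts did not move together. Mcm2 (chr6:88860452-88875762) measured 227, 227 and 199 CPM in Control and 298, 293 and 290 CPM in the MSNP group. Its groups were apart by more than their spread, with a log2 fold change of 0.43 ± 0.0629 (adjusted p = 9.58e-05). Mcm3 rose by 0.25 ± 0.0519 (adjusted p = 0.0023), a call that was lost with an offset for transcript length (0.08, adjusted p = 0.446). Mcm6 (chr1:128259311-128287516) measured 323, 342 and 312 CPM in Control and 265, 259 and 262 CPM in the MSNP group, a log2 fold change of -0.31 ± 0.0529 (adjusted p = 0.000395). Mcm4, Mcm5 and Mcm7 were not called.

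The within-library ratio of Mcm2 to Mcm6, a measure chosen after these values were seen, put the opposite changes on 1 scale that does not depend on library scaling. It was 0.702, 0.664 and 0.637 in the Control libraries and 1.12, 1.13 and 1.11 in the MSNP libraries. In the other 9 libraries it lay between 0.725 and 0.783, so that Mcm2 CPM exceeded Mcm6 CPM in the MSNP group alone among the 5 groups. The ratio of Cdt1 to Gmnn, chosen in the same way, was 2.14, 1.98 and 1.48 in Control, 3.61, 3.98 and 3.9 in MSNP, and between 2.05 and 2.4 in the other 9 libraries.

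**Figure D3:**
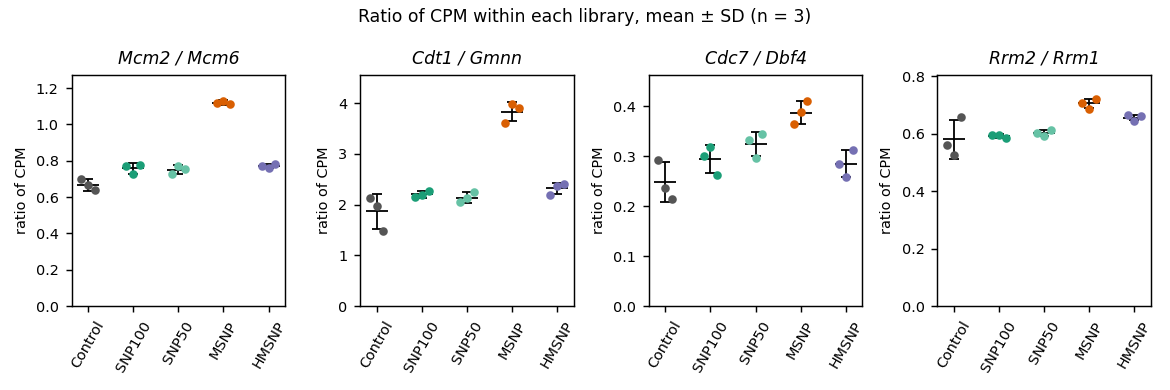
Ratios of CPM within each library for 4 pairs of genes, by group (points are libraries, bars mean ± SD, n = 3, vertical axes from 0). The Mcm2 to Mcm6 ratio averaged 1.12 in the MSNP group and 0.668 in Control, and the Cdt1 to Gmnn ratio averaged 3.83 and 1.87.

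Of the genes that activate the helicase, Cdc7 (chr5:107112175-107134541) had the largest change of all members. It measured 21.7, 17.4 and 15.5 CPM in Control and 32.1, 31.8 and 35.6 CPM in the MSNP group, a log2 fold change of 0.87 ± 0.125 (adjusted p = 9.2e-05). Its activator Dbf4 rose less, by 0.23 ± 0.0562 (adjusted p = 0.00853). The Cdc7 to Dbf4 ratio, also chosen after the values were seen, averaged 0.387 ± 0.0233 in MSNP and 0.248 ± 0.0403 in Control (SD, n = 3). It averaged 0.294 ± 0.0286 with SNP100, 0.324 ± 0.0241 with SNP50 and 0.285 ± 0.0267 with HMSNP. Mcm10, which helps the helicase to start, rose by 0.19 ± 0.0626 (adjusted p = 0.0383), a call that held in 6 of 23 alternative analyses and was lost without any 1 of 12 libraries, at adjusted p from 0.0502 to 0.143, and with the length offset at 0.08 (adjusted p = 0.277). Gins1, a GINS subunit, had 25.2, 20.3 and 40.9 CPM in Control and 21, 19.2 and 20.1 CPM in the MSNP group. These values overlapped, and the Gins1 call (log2 fold change -0.52 ± 0.176, adjusted p = 0.0449) ended without Control replicate 3, at -0.17 (adjusted p = 0.136). It held in 8 of 23 alternatives and was also lost without any 1 of 11 other libraries, at adjusted p from 0.0513 to 0.125. Cdc45, Gins2, Gins3 and Gins4 were not called. Of these, Cdc45 (0.22, adjusted p = 0.00528), Gins2 (0.20, adjusted p = 0.0284) and Gins3 (0.19, adjusted p = 0.0147) were called higher when Control replicate 3 was left out.

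Behind the helicase, fewer members were called. Rpa2, the middle subunit of the single-strand binding protein RPA (chr4:132495643-132506063), measured 79.8, 76.7 and 116 CPM in Control and 65, 62 and 64.1 CPM in the MSNP group, a log2 fold change of -0.51 ± 0.117 (adjusted p = 0.00445). It was -0.29 without Control replicate 3 (adjusted p = 4.71e-05). Pcna, the sliding clamp (chr2:132091082-132095234), had 506, 502 and 741 CPM in Control and 563, 537 and 540 CPM in the MSNP group. The Pcna values overlapped, with a log2 difference of -0.09 and an approximate 95% interval from -0.32 to 0.13 (adjusted p = 0.61). Its sign turned without Control replicate 3, to 0.13 (adjusted p = 0.051). The 5 Rfc clamp loader genes were not called with all libraries, and when Control replicate 3 was left out Rfc2 (0.24, adjusted p = 0.000763) and Rfc5 (0.23, adjusted p = 0.000521) were higher. With all libraries Pold3, an accessory subunit of polymerase delta, was the 1 member of 9 polymerase and primase genes that passed, at 0.24 ± 0.0592 (adjusted p = 0.0072). Leaving out Control replicate 3, the polymerase alpha genes Pola1 (0.17, adjusted p = 0.0454) and Pola2 (0.12, adjusted p = 0.0449) and the polymerase delta gene Pold2 (0.14, adjusted p = 0.0289) passed as well. Pold2 had been at -0.02 with it. Fen1 and Lig1, which trim and seal Okazaki fragments, were not called against Control with all libraries, and Fen1 was higher by 0.28 when Control replicate 3 was left out (adjusted p = 0.000108).

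Nucleotide supply split in the same manner. Tk1, the salvage enzyme that phosphorylates thymidine (chr11:117702770-117717042), measured 138, 122 and 196 CPM in Control and 91.2, 92.2 and 92.5 CPM in the MSNP group. It fell in every MSNP library relative to every Control library, with a log2 fold change of -0.73 ± 0.123 (adjusted p = 0.000412), and of -0.50 without Control replicate 3 (adjusted p = 7.96e-07). Rrm2, the regulatory subunit of ribonucleotide reductase (chr12:24757811-24764145), measured 212, 206 and 238 CPM in Control and 273, 259 and 272 CPM in the MSNP group. This rise of 0.29 ± 0.062 (adjusted p = 0.00253) was not shared by the large subunit Rrm1, which was not called. The Rrm2 to Rrm1 ratio, also chosen after the values were seen, was between 0.686 and 0.72 in the MSNP libraries and between 0.525 and 0.657 in the Control libraries. It averaged 0.593 with SNP100, 0.602 with SNP50 and 0.656 with HMSNP.

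Of the 3 G1/S regulators, Ccne1, which encodes cyclin E1 (chr7:37797404-37808264), measured 63.3, 59.7 and 77.5 CPM in Control and 53.7, 52.3 and 55.3 CPM in the MSNP group. Its log2 fold change was -0.31 ± 0.0818 (adjusted p = 0.011), and without Control replicate 3 it was -0.19 (adjusted p = 0.00548). Ccne2, which encodes cyclin E2, had 63.2, 59.8 and 61.4 CPM in Control and 58.1, 53 and 51.4 CPM in the MSNP group. The difference of -0.18 did not pass (adjusted p = 0.106, approximate 95% interval -0.33 to -0.03). E2f1, an activating E2F, had 56.2, 54.8 and 69.2 CPM in Control and 66.6, 65.2 and 67.2 CPM in the MSNP group, which overlapped (log2 difference 0.14, adjusted p = 0.216, approximate 95% interval -0.01 to 0.30). The E2f1 difference became a call without Control replicate 3, at 0.27 (adjusted p = 8.93e-05).

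**Figure D4:**
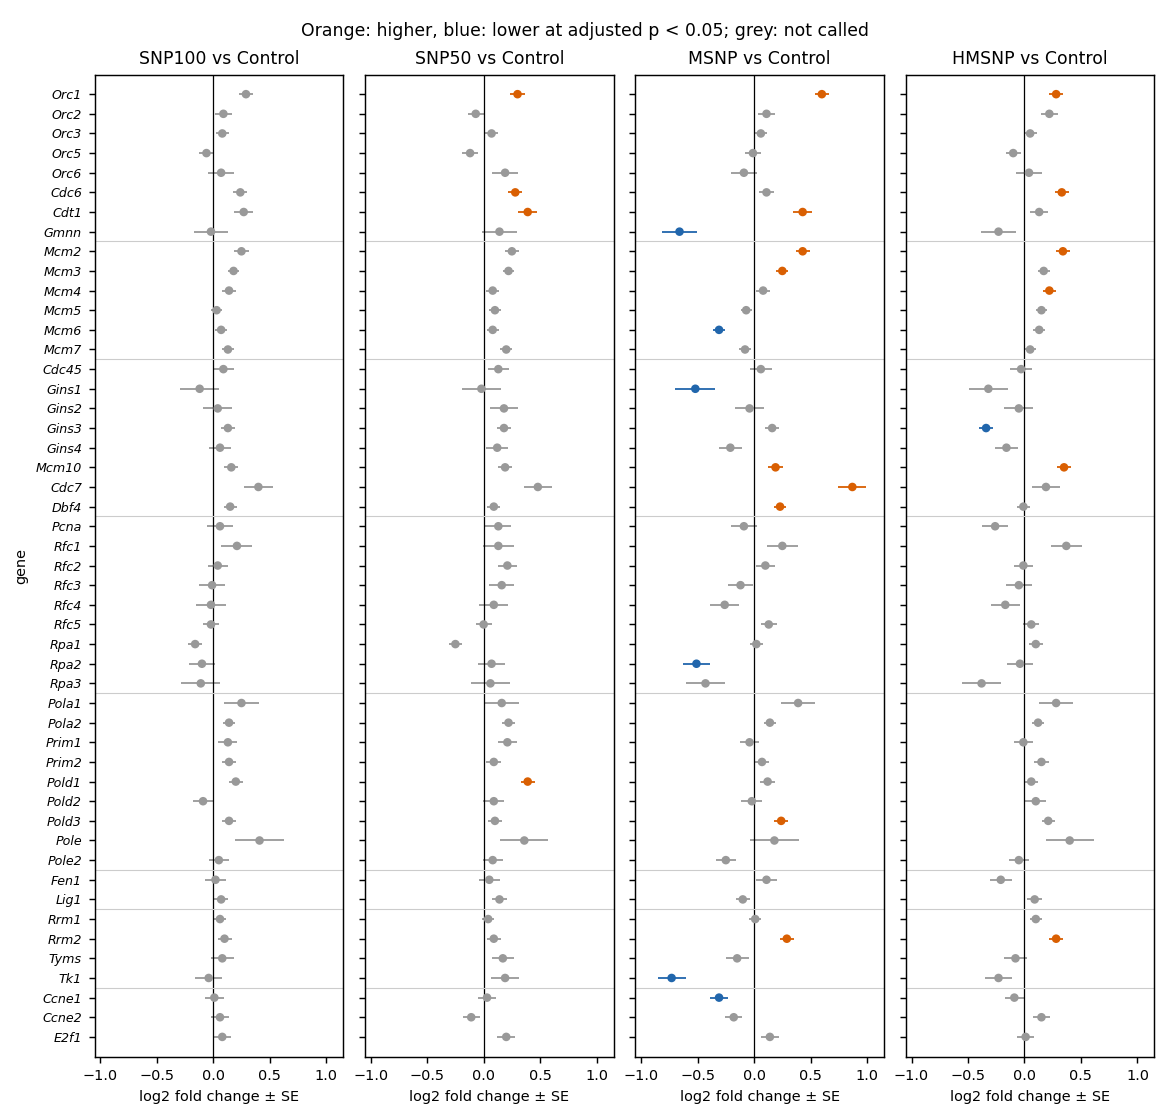
Log2 fold change against Control with its SE (horizontal axis) for the 49 genes (rows, grouped by role) in each of the 4 treated groups. Orange points are higher and blue points lower at adjusted p under 0.05 (0 and 0 genes with SNP100, 4 and 0 with SNP50, 9 and 6 with MSNP, 6 and 1 with HMSNP), and grey points were not called.

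A list of 51 other replication genes also moved in both directions in the MSNP group. Of these, 6 were higher and 10 lower. In all, 31.4% were called, against 22.8% of all tested genes and 33.3% of those with a mean of at least 10 CPM. The list's median log2 fold change was 0.07, beside -0.05 over all genes. When Control replicate 3 was left out, 11 were higher and 8 lower (all genes, 16.3% and 13.2%), and the median was -0.01. This check of both further lists was added after their values were seen. Dnmt1, the maintenance DNA methyltransferase that acts behind the fork, rose by 0.73 ± 0.144 (adjusted p = 0.00145) and Mcm9, a helicase of recombination repair, by 0.70 ± 0.153 (adjusted p = 0.00323). Pold4, the smallest subunit of polymerase delta, was lower by a log2 fold change of -1.06 ± 0.154 (adjusted p = 9.4e-05), from 18.5 ± 5.7 CPM in Control to 8.86 ± 0.458 CPM in the MSNP group.

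A list of 32 genes of G1/S control, of which 30 were tested, had 13 lower and 1 higher in the MSNP group, against 11.0% lower and 11.8% higher of all tested genes. Among all genes with a mean of at least 10 CPM, 13.7% were lower and 19.6% higher. The list's median log2 fold change was -0.15, beside -0.05 over all genes. When Control replicate 3 was left out, 16 were lower and 2 higher (all genes, 13.2% and 16.3%). The median was then -0.22 beside 0.00 over all genes. E2f2, an activating E2F, had the largest change of the list at -1.08 ± 0.0667 (59.6 ± 3.8 CPM in Control, 28.2 ± 1.31 in MSNP, adjusted p = 1.11e-08). The inhibitors of cyclin-dependent kinases Cdkn1b (p27) and Cdkn1a (p21) fell as well, by log2 fold changes of -0.72 ± 0.0847 and -0.64 ± 0.0795 (adjusted p = 1.16e-05 and 2.19e-05). Skp2, which marks p27 for destruction, was the 1 gene that rose with all libraries, by 0.61 ± 0.0696 (adjusted p = 8.57e-06). The genes that fell thus included inhibitors of S phase entry as well as an activating E2F.

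The HMSNP group asked the same of hollow particles, and its calls were fewer and mostly upward. Of the 49 members 6 were higher and 1 was lower than in Control, against 2.46% and 2.7% of all tested genes, or 14.3% of the members called against 5.16% of all tested genes and 8.0% of those with a mean of at least 10 CPM. The members that rose were Mcm10, Mcm2, Cdc6, Rrm2, Orc1 and Mcm4, with log2 fold changes from 0.22 to 0.35, and the member that fell was Gins3. The median log2 fold change of the 49 members was 0.06, beside -0.04 over all genes. Of the 49 estimates 29 were above 0, beside 27 with MSNP. Single libraries moved the counts of called members. There were 15 higher without Control replicate 3 (all genes, 4.47%), 14 higher and 6 lower without Control replicate 2 (all genes, 13.3% and 11.9%), and 3 higher without HMSNP replicate 2 (all genes, 1.08%) or replicate 3 (all genes, 1.32%). The 7 calls held when Control replicate 3 was left out. The 9 members added were Cdt1 (0.23), Lig1 (0.16), Mcm3 (0.14), Mcm5 (0.17), Orc6 (0.22), Pold2 (0.25), Pold3 (0.17), Rfc5 (0.15) and Rpa2 (0.17), at adjusted p from 0.00203 to 0.0493.

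Cdc6 (chr11:98798507-98814766) measured 59.5, 59.5 and 59.7 CPM in the HMSNP libraries, each above the Control values of 48.1, 44.8 and 48.8 CPM. Its log2 fold change was 0.33 ± 0.0633 (adjusted p = 0.00579), a call that was lost with the length offset (0.21, adjusted p = 0.117). Mcm10 (chr2:4994516-5017629) measured 65.8, 69.4 and 60.5 CPM in Control and 83.9, 81.9 and 83 CPM in the HMSNP group, a log2 fold change of 0.35 ± 0.0626 (adjusted p = 0.0042). Mcm2 measured 275, 277 and 271 CPM in the HMSNP libraries, which was also above every Control library (0.34 ± 0.0629, adjusted p = 0.00543). Mcm2, Mcm10, Orc1 and Rrm2 were thus called higher in both porous groups, which share the Control libraries. When Control replicate 3 was left out, Mcm2, Orc1 and Rrm2 were called higher with SNP100 and with SNP50 as well. Their adjusted p in these nonporous groups ran from 0.00198 to 0.0374, and Mcm10 was called in neither.

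Gins3, a GINS subunit (chr8:96360081-96392066), measured 41.7, 41 and 39.5 CPM in the HMSNP group and 49.8, 51.4 and 53.1 CPM in Control. It fell by 0.34 ± 0.0631 on the log2 scale (adjusted p = 0.00543) and was the lowest in the HMSNP group among the 5 groups. Rrm2 measured 267, 266 and 263 CPM in the HMSNP group (0.28 ± 0.0619, adjusted p = 0.0177), and Orc1 measured 21.9, 23.6 and 22.3 CPM (0.28 ± 0.0647, adjusted p = 0.023). The Rrm2 and Orc1 calls were lost without HMSNP replicate 2 (adjusted p = 0.0661 and 0.115) or replicate 3 (adjusted p = 0.0539 and 0.0601). The Mcm4 call (adjusted p = 0.0483) held in 5 of 23 alternatives, and was lost without any 1 of 13 libraries at adjusted p from 0.0572 to 0.176, and with the length offset at 0.06 (adjusted p = 0.516).

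Tk1, Rpa2 and Ccne1, which were lower with MSNP, were not called with HMSNP. Tk1 measured 132, 126 and 132 CPM and Rpa2 measured 87.1, 88.9 and 88.8 CPM, both inside the Control range. Their log2 differences from Control were -0.23 (approximate 95% interval -0.47 to 0.01) and -0.04 (-0.27 to 0.18). When Control replicate 3 was left out, Tk1 was at 0.00 (adjusted p = 0.986) and Rpa2 was called higher, at 0.17 (adjusted p = 0.0185). Cyclin E1 (Ccne1) measured 63.7, 63.7 and 61.4 CPM and overlapped with Control. Pcna, not called in either porous group, measured 485, 517 and 463 CPM, with 2 of the 3 HMSNP libraries below the lowest Control library. Its interval ran from -0.48 to -0.03 (adjusted p = 0.191), and its difference was -0.05 when Control replicate 3 was left out (adjusted p = 0.647). Ccne2 measured 71.4, 70 and 62.9 CPM and E2f1 59.7, 60.7 and 61.2 CPM, and neither passed. Of the other replication genes 2 of 51 rose, Dtl by 0.32 ± 0.0854 (adjusted p = 0.0438) and Mcm8 by 0.22 ± 0.0588 (adjusted p = 0.0486), and none fell. Of the 30 G1/S control genes 4 rose and 1 fell. The calls made up 3.92% and 16.7% of the 2 lists, against 5.16% of all tested genes. Among genes with a mean of at least 10 CPM the share was 8.0%. Without Control replicate 3 these counts were 10 and 1 of the other replication genes and 7 and 2 of the G1/S control genes. The shares of all genes were then 4.47% and 4.2%. The kinase Cdk6 (0.90 ± 0.139, adjusted p = 0.00138) and its partner Ccnd1, cyclin D1 (0.54 ± 0.0761, adjusted p = 0.000651), rose most, Mybl2 rose by 0.32 and Cdc25a by 0.30, and Cdkn1b had a log2 fold change of -0.36.

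**Figure D5:**
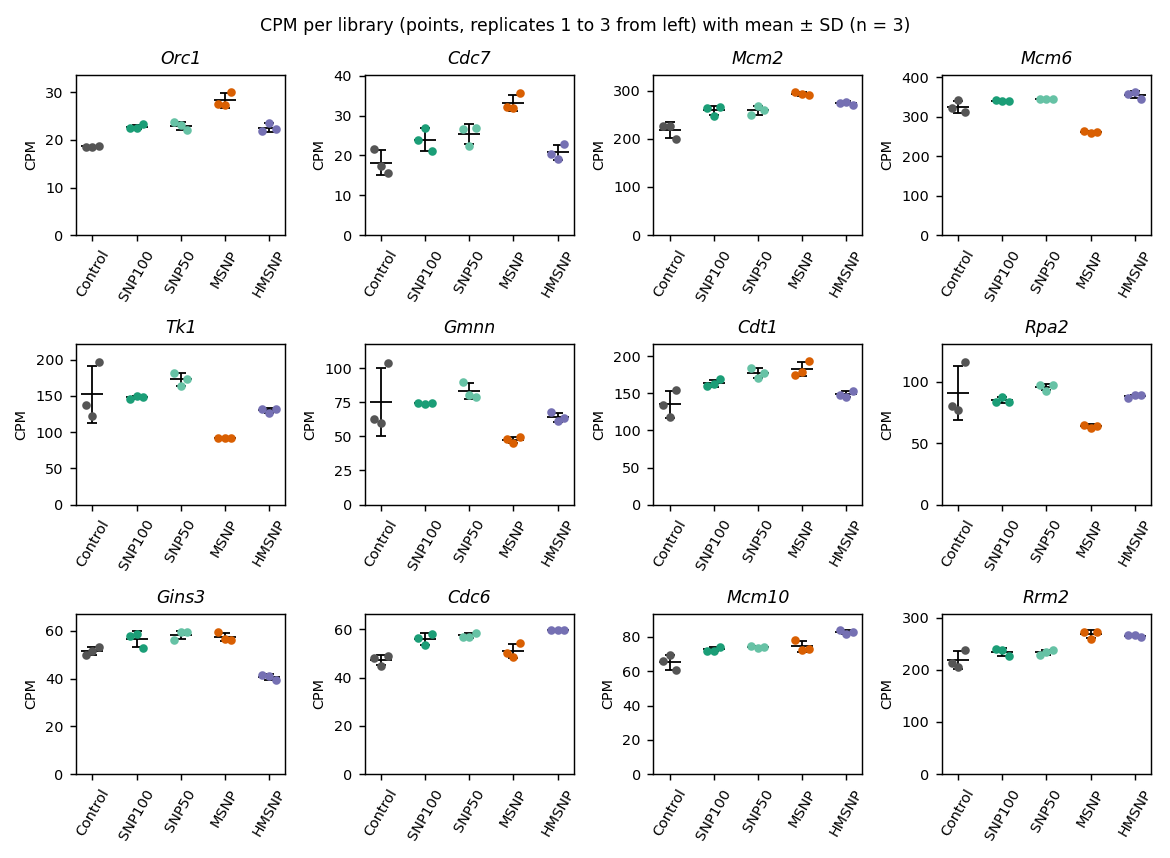
CPM of 12 members in each library (points) with the group mean ± SD (n = 3), on vertical axes that start at 0. Tk1, Gmnn, Rpa2 and Mcm6 were lowest and Cdc7 and Orc1 highest in the MSNP group, and Gins3 was lowest in the HMSNP group.

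The direct comparison of HMSNP with MSNP, at a matched dose of 200 µg/mL, time and nominal diameter, uses no Control library in its contrast. It gave 7 members higher and 6 lower in the HMSNP group, against 9.22% and 11.0% of all tested genes, or 26.5% of the members called against 20.2% of all tested genes and 29.3% of the genes with a mean of at least 10 CPM. Tk1 (0.50 ± 0.123, adjusted p = 0.008), Rpa2 (0.47 ± 0.117, adjusted p = 0.00875) and Mcm6 (0.44 ± 0.0529, adjusted p = 1.51e-05) were higher, as were Ccne2, Cdc6, Mcm5 and Lig1. Mcm6 measured 357, 364 and 346 CPM in the HMSNP group and 265, 259 and 262 CPM in the MSNP group, a gap wider than either spread. Without Control replicate 3, whose spread enters the shared estimate, 14 were higher and 9 lower (all genes, 15.5% and 18.4%), and without Control replicate 2 there were 11 higher (all genes, 11.2%).

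Lower in the HMSNP group were Cdc7 (20.4, 19.1 and 22.9 CPM against 32.1, 31.8 and 35.6), by -0.67 ± 0.124 on the log2 scale (adjusted p = 0.00092), and Gins3 (41.7, 41 and 39.5 CPM against 59.4, 56.4 and 56.3), by -0.49 ± 0.0631 (adjusted p = 3.08e-05). Orc1 (-0.32), Fen1 (-0.32), Cdt1 (-0.30) and Dbf4 (-0.23) were lower as well. Both subunits of the Cdc7 kinase and the licensing genes Orc1 and Cdt1 were therefore lower with hollow than with mesoporous particles. The licensing genes did not move together, as Cdc6 was higher and the other 5 of 8 were not called. The calls for Ccne2, Cdc7, Dbf4, Gins3, Mcm5, Mcm6, Orc1, Rpa2 and Tk1 held in 23 of 23 alternatives. Those for Cdc6, Cdt1, Fen1 and Lig1 held in 15 to 21 of 23, and were lost without some single MSNP or HMSNP libraries (adjusted p from 0.0524 to 0.153), and for Lig1 also without SNP100 replicate 3 or SNP50 replicate 2. Mcm2 and Rrm2 did not differ between the porous groups by this test, with log2 differences of -0.10 (approximate 95% interval -0.22 to 0.02) and -0.02 (-0.14 to 0.10).

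The 2 other lists held calls between the porous groups too. In all, 19.6% of the other replication genes and 56.7% of the G1/S control genes were called, against 20.2% of all tested genes. Among genes with a mean of at least 10 CPM the share was 29.3%. Of the other replication genes 7 were higher and 3 lower in HMSNP than in MSNP, with Pold4 (0.63 ± 0.154), Dna2, a nuclease of Okazaki processing (0.60 ± 0.108), and Timeless, a fork protection factor (0.59 ± 0.0849), changed most. Of the 30 G1/S control genes 15 were higher and 2 lower, with a median log2 fold change of 0.28 beside 0.00 over all genes. E2f2 (0.97 ± 0.0666, adjusted p = 3.94e-08), Cdkn1a (0.84 ± 0.0797, adjusted p = 1.36e-06) and Ccnd1 (0.77 ± 0.0763, adjusted p = 2.29e-06) had the largest differences, and Cdk4 (-0.50) and Skp2 (-0.43) were lower. In the fit that left out Control replicate 3, 23 of the other replication genes were higher and 8 lower (all genes, 15.5% and 18.4%). Of the G1/S control genes 20 were higher and 3 lower in that fit.

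With SNP100, 0 of 49 members passed, where 0.509% of all tested genes were higher and 0.403% lower (0.912% in all). An unadjusted p under 0.05 was found for 15 members, and 7 were called by DESeq2 (all genes higher, 1.25%). The median log2 fold change was 0.08, and 38 of 49 estimates were above 0. Orc1 measured 22.6, 22.5 and 23.3 CPM, above the 3 Control libraries (log2 difference 0.29, adjusted p = 0.0529), and Mcm2 measured 264, 247 and 265 CPM (0.25, adjusted p = 0.0879). Pcna measured 608, 611 and 609 CPM, within the Control range of 502 to 741. For a median member the SE was 0.0783 on the log2 scale, and the approximate 95% intervals over all members ran from -0.47 to 0.83. Without Control replicate 3, 18 members were higher and 0 lower, against 2.84% and 2.32% of all tested genes, and without MSNP replicate 3 there was 1 (all genes higher, 0.402%). The 18 included Cdt1 (0.37, adjusted p = 0.000958), Pcna (0.27, adjusted p = 0.00192), Cdc6 (0.27, adjusted p = 0.00968) and Orc1 (0.29, adjusted p = 0.00779).

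With SNP50, 4 of 49 members were higher and 0 lower, against 0.454% and 0.958% of all tested genes (1.41% in all). Pold1, the catalytic subunit of polymerase delta (chr7:44182168-44198349), measured 149, 138 and 139 CPM beside 115, 101 and 110 CPM in Control, a log2 fold change of 0.39 ± 0.0634 (adjusted p = 0.00709). Cdt1 measured 184, 171 and 178 CPM (0.39 ± 0.0825, adjusted p = 0.0313), Orc1 23.8, 23.1 and 22.1 CPM (0.30 ± 0.0649, adjusted p = 0.0335) and Cdc6 56.9, 56.9 and 58.5 CPM (0.28 ± 0.0634, adjusted p = 0.0444). Of the 4, 3 were among the 8 origin licensing members, and the other 5 licensing members were not called. The Pold1 call held in 22 of 23 alternatives, that of Cdt1 in 16, Orc1 in 11 and Cdc6 in 6, and the last 3 were lost without any of the SNP50 libraries. The median over the members was 0.13, with 43 of 49 estimates above 0. Without Control replicate 3 there were 31 higher and 2 lower, against 9.63% and 9.3% of all tested genes. The 31 included members of other roles, such as Tk1 (0.41), Pcna (0.34), Rfc2 (0.34) and Tyms (0.34). The 2 lower were Rpa1 (-0.21) and the licensing gene Orc2 (-0.17). Leaving out Control replicate 1 or 2, or any SNP100 library, gave 2 higher (all genes, 0.331% to 0.428%), and leaving out any SNP50 library or HMSNP replicate 3 gave 1 (all genes, 0.158% to 0.327%).

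In the 2 further lists the nonporous groups had few calls, at shares above those of all tested genes. With SNP50, 3.92% of the other replication genes and 10.0% of the G1/S control genes were called. All tested genes stood at 1.41%, and those with a mean of at least 10 CPM at 2.4%. With SNP100, 1 of 51 and 3.33% were called, against 0.912% and 1.56%. These shares rest on few genes. Of the other replication genes 1 was higher with SNP100 (Mcm8, 0.27 ± 0.0588, adjusted p = 0.0429) and 2 with SNP50 (Chtf18, 0.34 ± 0.0737, and Chaf1b, 0.33 ± 0.0693). The kinase inhibitor Cdkn1a was the 1 gene of the G1/S list that was lower, in both the SNP100 group (-0.42 ± 0.0792, adjusted p = 0.0209) and the SNP50 group (-0.35 ± 0.0792, adjusted p = 0.0433), which share the Control libraries. Mybl2 (0.27 ± 0.0599) and Mycn (0.23 ± 0.0534) were higher with SNP50. When Control replicate 3 was left out, 9 of the other replication genes were higher and 0 lower with SNP100, and 20 and 2 with SNP50. Of the G1/S control genes 2 were then higher and 1 lower with SNP100, and 7 and 2 with SNP50. The shares of all tested genes higher and lower in that fit were 2.84% and 2.32% with SNP100, and 9.63% and 9.3% with SNP50.

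Between SNP50 and SNP100, which differ in both size and dose, 0 of 49 members passed, as did 0.0% of all tested genes in each direction by edgeR. At an unadjusted p under 0.05 there were 3 members, and DESeq2 called 1 gene of all 19839. The lowest and highest bounds of the approximate 95% intervals over all members were -0.48 and 0.51. The SE was 0.0783 for a median member and 0.214 at most, so most intervals were narrower than these bounds. Between MSNP and SNP100, which share a nominal diameter and not a dose, 4 members were higher and 8 lower, against 10.4% and 7.53% of all tested genes (17.9% in all). Of the members 24.5% were called, against 26.6% of the genes with a mean of at least 10 CPM. Tk1 (-0.69 ± 0.123, adjusted p = 0.000841), Gmnn (-0.64 ± 0.155, adjusted p = 0.00858) and Mcm6 (-0.38 ± 0.0529, adjusted p = 8.71e-05) were lower in the MSNP group by this contrast too. Rpa2 was also lower (-0.41 ± 0.117, adjusted p = 0.0219), and Cdc7 (0.47 ± 0.124, adjusted p = 0.0144) and Orc1 (0.31 ± 0.0642, adjusted p = 0.00277) were higher. The calls for Ccne1, Gmnn, Mcm6, Orc1 and Tk1 held in 23 of 23 alternatives. Cdc7 was lost without SNP100 replicate 1, SNP100 replicate 3 or MSNP replicate 3, and Rpa2 without SNP100 replicate 2, SNP100 replicate 3 or MSNP replicate 2. The calls for Ccne2, Mcm7, Pole2, Rpa1 and Rrm2 held in 11 to 19 of 23. Without Control replicate 3 there were 8 higher and 17 lower (all genes, 18.2% and 14.8%). The higher count dropped to 1 or 2 without any 1 of 8 other libraries (SNP100 replicate 2 or 3, SNP50 replicate 2, any MSNP library, HMSNP replicate 2 or 3, all genes 8.09% to 10.0%), and the lower count to 4 or 5 without SNP100 replicate 1, SNP100 replicate 3 or MSNP replicate 2 (all genes, 5.41% to 5.84%).

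Over the 4 comparisons with Control, 19 members were called at least once, 6 in at least 2 and 1 member, Orc1, in 3, and 23 members were called in none of the 7 comparisons. The same counts were not made over all tested genes. In the MSNP group alone 22.8% of these were called, and 33.3% of those with a mean of at least 10 CPM. The counts are therefore not read as a property of the set. The Control comparisons share the Control libraries. The order of Orc1 over the groups was Control, HMSNP, SNP100, SNP50 and MSNP, with group means of 18.7, 22.6, 22.8, 23 and 28.3 CPM. The HMSNP, SNP100 and SNP50 means do not differ beyond their spread.

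Exon bases of 16 members are shared with a protein-coding gene on the opposite strand, and the libraries were directional but the strand setting of the counting was not given in the sources used here. Reads of such pairs may not have been told apart. Tk1 shares 630 exon bases with Syngr2, whose log2 fold change in the MSNP group was -0.37 (adjusted p = 0.0482), in the direction of Tk1. Ccne1 shares 70 bases with 1600014C10Rik, which fell by 0.41 (adjusted p = 0.00383), and Orc1 shares 26 bases with Prpf38a, which was not called (-0.14, adjusted p = 0.294). Rfc2 and Rfc5 share 1708 and 2905 bases with Lat2 (0.95) and Wsb2 (0.88), which rose with MSNP. Both members were higher with MSNP when Control replicate 3 was left out, in the direction of these neighbours. The part of these neighbours in the members' values was not tested.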

How the data were processed

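The deposited values were raw counts per gene for 15 poly(A)-selected, directional, paired-end libraries. Per the labels, the submitters' processing notes name cutadapt 1.16, STAR 2.7.9a, featureCounts 1.6.3 and GRCm39. The annotation release, the strand setting and whether reads or pairs were counted are not given in the sources used here. Groups and replicate numbers came from the sample titles, and doses from the study's methods. A further step here matched gene IDs to GENCODE vM39.

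Genes with a summed count of at least 10 (19839) were scaled by TMM and tested with the quasi-likelihood method of edgeR 4.0.16 in R 4.3.3, with all 15 libraries in 1 model, 7 contrasts and Benjamini-Hochberg adjustment at 0.05 over all genes tested. Approximate 95% intervals are the log2 fold change ± 1.96 SE. The study used DESeq2, run here as an alternative (version 1.42.0). The other alternatives were RLE scaling, filterByExpr, no filter, fits of the 6 libraries compared, a block for the replicate number, an offset for transcript length with all libraries and without Control replicate 3, and each library left out in turn. The scripts were tested on simulated data.

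The members, the gene lists and the tests were chosen with earlier results of these data known. Named with per-library values were Mcm2, Pcna, Cdc6, Rrm2, Ccne1, Ccne2, E2f1 and up to 5 called members with the largest changes in each comparison. From the other lists, called genes with the 3 largest changes in a comparison are named, and Skp2, Cdk4 and Cdc25a were added after their values were seen. Precision is limited by 3 libraries a group at 29369934 to 42617812 counts.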

Additional observations from a re-analysis of the deposited data

How the results depend on the processing

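Of 51 calls of members over the 7 comparisons, none turned its direction in any of the 23 alternatives. DESeq2 and filterByExpr kept 51, RLE scaling 49, no filter 41, only the 6 libraries of a comparison 29, the length offset 45, and the length offset without Control replicate 3 kept 49. The replicate block kept 44, with 2 members higher in SNP50 against Control (all genes higher, 0.328%) and 2 higher in MSNP against SNP100 (9.77%). Replicate numbers are names only in the labels. Same-numbered libraries deviated together in 10 of 30 pairs (r over 0.1, range -0.517 to 0.573), and 8 of 15 libraries correlated best with their own number, so the numbers were not taken as pairs.

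The share of all tested genes called in the same direction stands in parentheses. For SNP100 against Control, higher members numbered 7 by DESeq2 (1.25%), 1 by RLE scaling (0.499%), 1 by filterByExpr (0.889%), 3 with the length offset (1.35%) and 20 with that offset and no Control replicate 3 (3.13%). For SNP50 against Control they numbered 11 by DESeq2 (1.26%), 2 with no filter (0.261%), 0 with only 6 libraries (0.0%), 11 with the length offset (1.73%) and 30 with the offset and no Control replicate 3 (7.12%), and 1 member was lower by DESeq2 (2.17%), by filterByExpr (2.03%) and with the offset and no Control replicate 3 (8.66%). For MSNP against Control there were 3 higher and 1 lower with only 6 libraries (7.37% and 5.61%), and 15 higher with the offset and no Control replicate 3 (16.0%). For HMSNP against Control there were 11 higher by DESeq2 (4.64%), 0 higher and 0 lower with only 6 libraries (0.097% and 0.342%), 11 higher with the offset (5.26%), and 17 with the offset and no Control replicate 3 (5.81%). For HMSNP against MSNP there were 20 higher and 10 lower with only 6 libraries (20.5% and 20.4%), 16 higher with the offset (13.4%) and 23 higher without Control replicate 3 too (18.5%), with medians of 0.09 in both. For MSNP against SNP100 there were 2 higher with no filter (6.89%), 9 higher and 19 lower with only 6 libraries (21.9% and 19.0%), 13 lower with the offset (11.4%), and 8 higher and 21 lower without Control replicate 3 too (17.7% and 16.9%), with medians of -0.07 in both. For SNP50 against SNP100 the offset without Control replicate 3 gave 2 higher and 1 lower (0.4% and 0.575%).

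Leaving out 1 library at a time, higher and lower members ranged from 0 to 18 and 0 to 0 for SNP100, 1 to 31 and 0 to 2 for SNP50, 8 to 19 and 5 to 10 for MSNP and 3 to 15 and 1 to 6 for HMSNP against Control, 5 to 14 and 4 to 9 for HMSNP against MSNP, and 1 to 8 and 4 to 17 for MSNP against SNP100, where the median ranged from -0.07 to -0.04. The all-gene share also moved with the library left out. With SNP50, 1 higher member stood beside 0.183% of all genes (no SNP50 replicate 1). With MSNP, 8 stood beside 11.4% (no SNP100 replicate 1), and in HMSNP against MSNP 5 beside 6.96% (no MSNP replicate 1). Without Control replicate 3 these were 31 (9.63%), 19 (16.3%) and 14 (15.5%). Lower members with MSNP were then 5 (13.2%), beside 6 (11.0%) with all libraries. In each of the 6 comparisons listed the most higher members were called without Control replicate 3. The cause was not tested. The 3 libraries a group and the spread of the Control group limit what small changes could be called.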
